A study of Mus musculus with 48 samples.

Results

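Livers of mice sampled 168 h after LX-A2003 were compared with livers of mice sampled 72 h after LX-A1656, with 4 libraries on each side out of the 48 libraries in the series. Both compounds are gapmer antisense oligonucleotides directed against Scarb1, which encodes the hepatic receptor for high-density lipoprotein. A gapmer pairs with its target RNA through a DNA-like centre, and RNase H then cuts the RNA in that stretch. Times were counted from the first administration, so that 168 h is day 7 and 72 h is day 3. PBS livers of 168 h and of 72 h, 4 libraries each, were the vehicle controls. LX-A1656 168h and LX-A2003 72h livers, also 4 libraries each, were used to separate time from compound. The labels name no allele, transgene or disease model for any group. The sources used here do not give strain, sex, age, doses, later administrations or oligonucleotide sequences. Nothing in the labels says whether replicates were separate animals. Every p below rests only on the spread of samples within groups, pooled over all 12 groups of the series, and that spread may be technical.

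The pair was chosen from measured values. On the first principal component of all 48 libraries, LX-A2003 168h and LX-A1656 72h both lay far from PBS, and their responses against PBS ran alike, as an earlier and a later state of similar responses. That likeness is given as a description with no test. Compound and time differ together in the direct comparison and cannot be told apart within it.

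Liver responds to injury in a sequence that has been mapped mainly in toxic injury and after partial hepatectomy. Hepatocytes first switch on immediate early, stress and interferon-stimulated genes, and lower the transcripts of their specialised metabolism. Hepatocytes and resident cells then enter the cell cycle, stellate cells deposit collagen matrix, and Kupffer cells with recruited macrophages clear debris through their lysosomes.

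Counts of amplified gene fragments gave 8140065 to 17191129 reads per library (median 10659453), and 12672 of 23930 listed genes were tested. Levels are given as CPM, counts brought to a common library total with TMM scaling, and differences as log2 fold changes with their standard errors. A gene is called when its Benjamini-Hochberg adjusted p from the edgeR quasi-likelihood test was under 0.05. The kit reads one fragment per gene, and CPM levels are not compared between genes. On average 15847.2 genes were detected in LX-A2003 168h libraries and 14894.5 in LX-A1656 72h libraries, against 13830 in PBS 168h and 14301.5 in PBS 72h libraries. Hepatocyte markers were abundant in every library, with summed levels of 44719 to 55698 CPM in LX-A2003 168h and 53016 to 73571 CPM in LX-A1656 72h, against 83990 to 106085 CPM in PBS 168h and 87590 to 95235 CPM in PBS 72h. One library in each group stood apart from its fellows. Replicate 4 of LX-A2003 168h differed from the other 3 by a chi-square of 35.6 to 83.0 per degree of freedom over genes, against 12.8 to 21.6 among those 3. Replicate 1 of LX-A1656 72h did so by 51.9 to 72.6, against 12.3 to 22.0 among the others. Replicate 4 of LX-A1656 168h differed from its fellows by 43.4 to 48.1, against 10.0 to 25.9 among those. Counts below of 4 list members or more that moved by more than 1.5 times without such a library are given with and without it. Counts of 3 members or fewer moved by 1 or 2 genes in many lists when 1 library was left out. The PBS 168h controls were uneven as well. Their replicates 2 and 4 differed by 6.61, and every other pair of them by 28.0 to 43.7. On the second principal component replicates 1 and 3 lay at -8.63 and -7.81, and replicates 2 and 4 at 12.1 and 13.2. Responses against PBS 168h and the PBS-adjusted difference rest on these libraries.

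**Figure D1:**
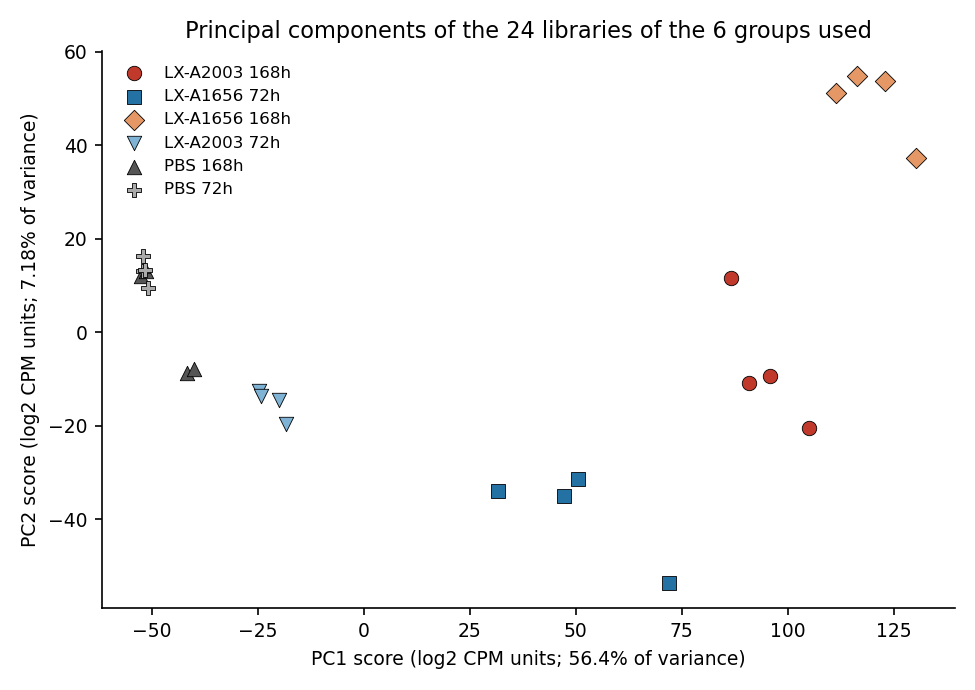
First and second principal component scores of the 24 libraries of the 6 groups used (log2 CPM, components computed on all 48 libraries); each point is 1 library. LX-A2003 168h libraries lay between 86.6 and 105 on the first component and LX-A1656 72h libraries between 31.7 and 71.9, while PBS libraries lay at -40.1 or lower.

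The first component held 56.4% of the variance and the second 7.18%. LX-A2003 168h averaged 94.5 ± 7.87 on the first component and LX-A1656 72h 50.3 ± 16.5 (SD, n = 4 each). PBS 168h averaged -46.4 ± 6.39 and PBS 72h -51.7 ± 0.598. On the same axis the exchanged groups were farther apart, at 120.2 ± 8.19 for LX-A1656 168h and -21.8 ± 3.18 for LX-A2003 72h. The 2 groups of the pair did not overlap on it. Correlations of log2 CPM between LX-A2003 168h and LX-A1656 72h libraries had a median of 0.940 (0.907 to 0.957). Within LX-A2003 168h the median was 0.975 and within LX-A1656 72h 0.977. With LX-A3928 168h, the third gapmer of the series, LX-A2003 168h libraries had a median of 0.961, and with LX-A1656 168h a median of 0.941. LX-A1656 72h libraries had medians of 0.944 with LX-A2003 72h and 0.943 with LX-A3928 168h. Neither group of the pair was therefore the nearest to the other. Correlations with PBS of the same time were high as well, with medians of 0.876 for LX-A2003 168h and 0.909 for LX-A1656 72h.

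Scarb1, the target of both oligonucleotides, was far below PBS on both sides. LX-A2003 168h libraries held 12.6, 14.2, 13.4 and 9.81 CPM of its fragment, and LX-A1656 72h libraries 4.08, 3.36, 6.21 and 4.02 CPM. PBS averaged 320 ± 78.8 CPM at 168 h and 304 ± 9.01 CPM at 72 h (SD, n = 4 each). Every LX-A2003 168h library was above every LX-A1656 72h library, and all 8 were far below every PBS library. The direct difference was 1.49 ± 0.24 on the log2 scale (adjusted p = 4.05e-06), and the difference of the responses against PBS was 1.42 ± 0.32 (adjusted p = 0.00145). Against their own PBS the log2 fold changes were -4.68 in LX-A2003 168h and -6.10 in LX-A1656 72h. LX-A1656 168h averaged 16.3 CPM of Scarb1 and LX-A2003 72h averaged 5.59 CPM, so the later time was also the higher one when the compounds were exchanged. The time term, explained below, was 1.52 (adjusted p = 1.52e-10) and the compound term -0.03 (adjusted p = 0.902). The compound term averages over both times, so its small value does not show equal levels at each. At 168 h the LX-A1656 mean of 16.3 CPM was above every LX-A2003 library. At 72 h the LX-A2003 mean of 5.59 CPM lay within the LX-A1656 range of 3.36 to 6.21 CPM. The position of the measured Scarb1 fragment relative to the oligonucleotide target was not known.

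The shared part of the responses was large, and it is described here because it led to the choice of the pair. Against PBS 168h, 3775 genes were higher and 3212 lower in LX-A2003 168h, which is 29.8% and 25.3% of all genes tested (55.1% in either direction). Against PBS 72h, 3134 were higher and 2968 lower in LX-A1656 72h, which is 24.7% and 23.4% (48.2% in either direction). With library totals alone the splits were 5865 to 1685 and 4294 to 2153. Both responses called 4484 genes, 64.18% of the LX-A2003 168h list and 73.48% of the LX-A1656 72h list, and 4365 of them had the same sign. Nothing is read from these shares. Among the genes highest in both were epithelial and stress genes that are close to silent in PBS liver. Krt5, a keratin of stratified epithelium, had 20.9 to 25.2 CPM in LX-A2003 168h libraries and 9.09 to 36.9 CPM in LX-A1656 72h libraries, and no count in any PBS library. That is at least 255.2-fold and at least 251-fold above PBS, with 3 counts over the PBS group as the floor. Fosl1, an AP-1 subunit, was likewise without counts in PBS and at least 179.1-fold and at least 229.5-fold higher. Cldn4, a tight junction claudin, had 90.2 to 119.1 CPM in LX-A2003 168h and 60.6 to 274.8 CPM in LX-A1656 72h. Cidec, a lipid droplet fusion protein, had 427 to 636.2 CPM in LX-A2003 168h and 295.3 to 708.4 CPM in LX-A1656 72h, against PBS means of 1.29 and 2.45 CPM. The groups overlapped for all 4 of these genes, and none was called in the direct difference. Cldn4 was called lower without replicate 2 of LX-A1656 72h (-0.78, adjusted p = 0.0316), and Cidec higher without both libraries that stood apart in the pair (0.70, adjusted p = 0.0426). Bmp8b, a bone morphogenetic protein, overlapped as well, with 21.0 to 40.7 CPM against 10.1 to 30.5 CPM. Ypel4, a member of the yippee family, was higher in LX-A2003 168h, with 49.2 to 56.1 CPM against 19.4 to 34.1 CPM. R3hdml, a peptidase inhibitor-like gene, was lower, with 2.23 to 3.49 CPM against 6.73 to 22.2 CPM (-2.37 ± 0.35, adjusted p = 4.14e-06).

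Among the genes lowest in both, several are known for very long introns. Fhit, a diadenosine triphosphatase at a fragile site, and Immp2l, a mitochondrial inner membrane peptidase, were each below 0.5 CPM in all 8 libraries, against 13.4 to 19.4 CPM on average in PBS. Slc25a21, a mitochondrial carrier, was at 0 to 0.371 CPM in LX-A2003 168h and 0.0789 to 0.174 CPM in LX-A1656 72h, against 14.4 and 16.7 CPM in PBS 168h and PBS 72h. Bphl, a serine hydrolase, was at 5.11 to 7.59 CPM and 4.52 to 7.91 CPM, with PBS means of 233.5 and 226.3 CPM. These 4 genes overlapped between the groups and were not called directly, although Fhit was called higher without replicate 1 of LX-A1656 72h (adjusted p = 0.034), against a group that then held no count of it. Sdc2, a heparan sulfate proteoglycan, was also among the lowest but differed between the groups, with 7.52 to 11.5 CPM in LX-A2003 168h against 2.45 to 3.04 CPM in LX-A1656 72h (1.79 ± 0.20, adjusted p = 9.54e-10). A list of 28 very long genes had 20 members tested, of which 14 were lower and 2 higher in LX-A2003 168h against PBS, and 18 lower and 1 higher in LX-A1656 72h. In the direct difference 9 of the 20 were higher in LX-A2003 168h and none lower, with a median of 1.03. That count was 5 of 12 when only the 2 groups compared were fitted, as fewer members passed the filter there. In the exchanged pair 4 were higher and 7 lower. Magi1, a junction scaffold, had 11.0 to 14.5 CPM in LX-A2003 168h, 3.91 to 7.57 CPM in LX-A1656 72h and PBS means of 61.4 and 60.1 CPM.

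**Figure D2:**
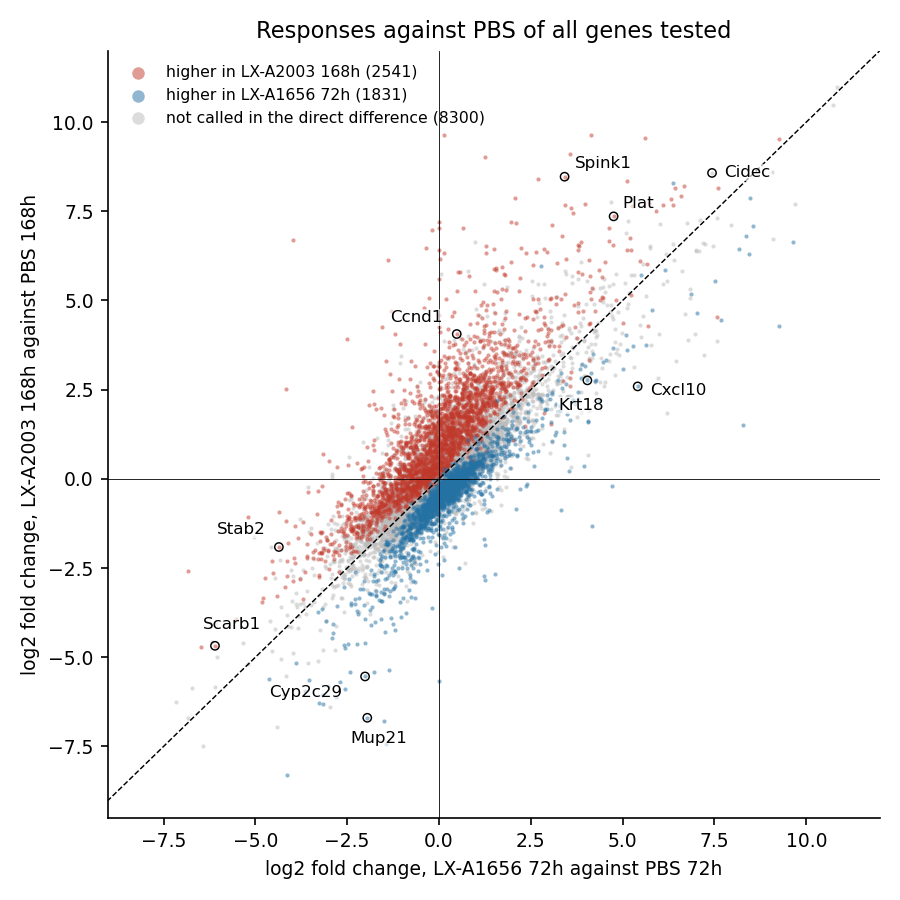
Log2 fold change of the 12672 genes tested in LX-A2003 168h against PBS 168h (vertical) and in LX-A1656 72h against PBS 72h (horizontal); red and blue points are genes called higher (2541) and lower (1831) in LX-A2003 168h against LX-A1656 72h, and the dashed line marks equal responses. Most genes lie in the lower left and upper right quadrants, and called genes lie to either side of the line; fold changes of genes near 0 counts in PBS depend on the prior count.

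The direct comparison called 4372 genes, 34.5% of those tested. Of these, 2541 (20.1%) were higher in LX-A2003 168h and 1831 (14.4%) were lower, and the fold change was at least 1 on the log2 scale for 1450 and 482 of them. The median log2 fold change was 1.11 for the higher genes and -0.72 for the lower ones, and 0.01 over all genes. All 4 libraries of one group lay beyond all 4 of the other for 1907 of the higher and 1067 of the lower genes. Scaling matters for this split: library totals alone gave 3081 higher and 1050 lower genes, with a median log2 fold change of 0.14 over all genes. Fold changes below are relative to the TMM scale. The spread was pooled over all 12 groups, and a fit of only the 2 groups compared called 3364 genes, 2006 higher and 1358 lower. Taking each response against its own PBS, the PBS-adjusted difference called 1812 genes (14.3%), 1156 higher (9.12%) and 656 lower (5.18%). With library totals alone this split was 1627 to 315. Between PBS 168h and PBS 72h edgeR called 4 genes (0.0316%), with 1273 at an unadjusted p under 0.05, while DESeq2 called 19.

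The 4 groups given LX-A2003 or LX-A1656 at 168 h or 72 h split the direct difference into a time term (168 h minus 72 h, averaged over both compounds) and a compound term (LX-A2003 minus LX-A1656, averaged over both times), which add up to it. As averages, they hide differences that go opposite ways at the 2 times or with the 2 compounds. The time term called 7254 genes (57.2%), 3771 higher (29.8%) and 3483 lower (27.5%). The compound term called 4936 (39%), 2551 higher (20.1%) and 2385 lower (18.8%). With library totals alone the splits were 5617 to 1819 for time and 1748 to 3630 for compound. Both terms contain the direct difference itself, so genes called in it are drawn toward a call in either term. The split that follows is a description and no independent attribution to time or compound. Of the 2541 genes higher in the direct comparison, 1325 were called in the time term alone in that direction and 361 in the compound term alone. A further 213 were called in both, and in 476 the time term was opposed by the compound term. Of the 1831 lower genes, 861 went with time alone, 375 with compound alone, 139 with both, and 335 with time against compound. The 2 terms opposed each other at many genes that the direct comparison did not call. For 1415 genes the time term was higher and the compound term lower, and 895 of these were not called directly; for 1604 genes the signs were exchanged, and 1157 were not called directly.

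A second comparison, added after the data were seen, shares no library with the pair: LX-A1656 168h against LX-A2003 72h, in which the compounds are exchanged between the times. It called 7510 genes (59.3%), 3930 higher (31%) and 3580 lower (28.3%), or 6047 and 2026 with library totals alone. Of the 2541 genes higher in LX-A2003 168h than in LX-A1656 72h, 1590 were also higher in this exchanged pair and 349 were lower. Of the 1831 lower genes, 920 were also lower and 225 were higher. The gene lists below are given with the counts of both comparisons, the exchanged pair being the later time against the earlier one with the compounds the other way round. Gene lists are described by counts and medians beside those of all genes, and none was tested as a list. Counts of the exchanged pair stand beside its 31% higher and 28.3% lower over all genes, and nothing is read from those near these shares.

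**Figure D3:**
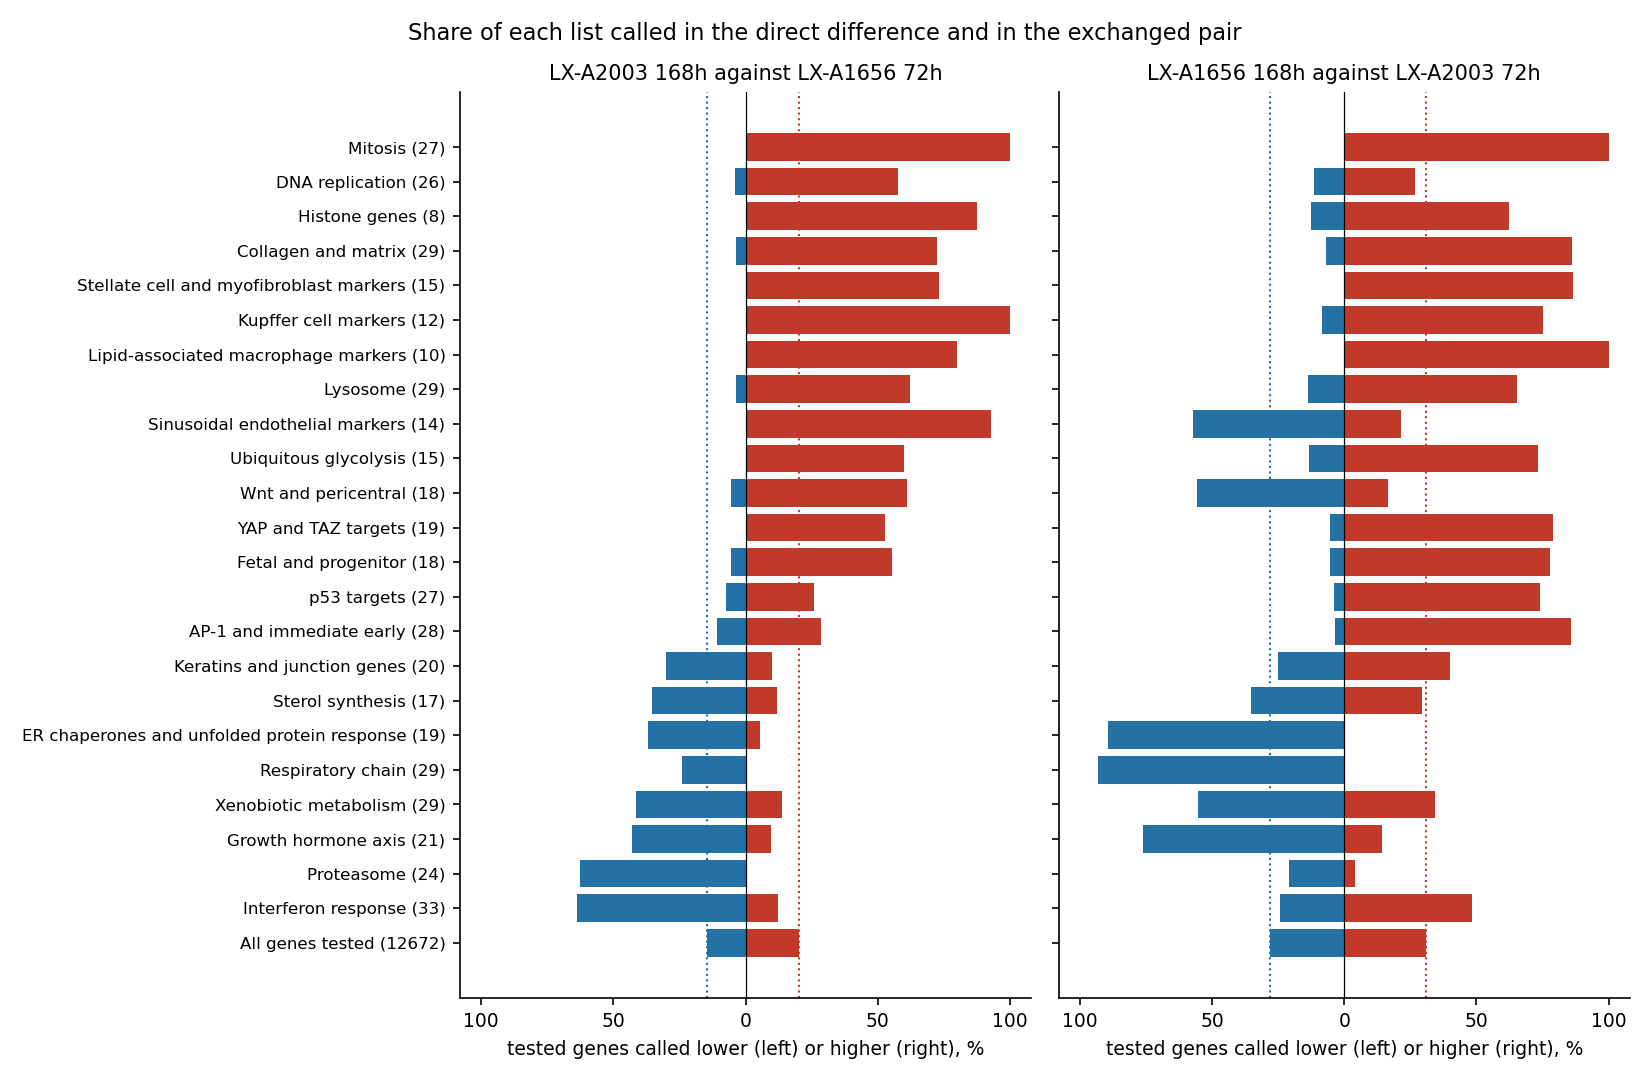
Percentage of the tested members of 23 gene lists, and of all 12672 genes, called higher (red, right) or lower (blue, left) in LX-A2003 168h against LX-A1656 72h (left panel) and in LX-A1656 168h against LX-A2003 72h (right panel); dotted lines mark the percentages over all genes and the number tested stands in parentheses. Mitosis genes are at 100% higher in both panels, while sinusoidal endothelial and pericentral genes are mostly higher on the left and mostly lower on the right.

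Genes of mitosis were higher throughout at LX-A2003 168h. All 27 tested members were called higher and none lower, with a median log2 fold change of 2.90, and 21 of 27 were called in the PBS-adjusted difference. The exchanged pair also had 27 of 27 higher, with a median of 2.21. The time term called all 27 higher and the compound term 2. Against PBS all 27 were higher in LX-A2003 168h and 16 in LX-A1656 72h. The promoters of 2 of them are shown because these genes moved together and such promoters are known to carry CCAAT and CHR elements. The 2 were taken by small p in the direct difference from members whose promoter held both elements. Their matches therefore follow from the choice. The sequences are RefSeq promoters on GRCm38.p6, from 250 bases before to 50 bases after the gene start, read 5′ to 3′ along the gene. Ube2c lies at chr2:164769679-164769978 on the plus strand, and Ccnb2 at chr9:70421505-70421804 on the minus strand. Capitals mark CCAAT, the site of the factor NF-Y, and TTTGAA, the cell cycle homology region (CHR), on either strand. CCAAT on both strands overlaps once in the Ube2c sequence.
Ube2c: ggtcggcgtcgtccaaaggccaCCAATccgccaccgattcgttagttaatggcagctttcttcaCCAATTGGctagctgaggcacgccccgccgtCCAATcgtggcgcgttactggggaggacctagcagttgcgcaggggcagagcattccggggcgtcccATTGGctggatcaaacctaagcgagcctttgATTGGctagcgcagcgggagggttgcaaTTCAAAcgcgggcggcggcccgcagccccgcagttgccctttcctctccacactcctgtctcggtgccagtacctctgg
Ccnb2: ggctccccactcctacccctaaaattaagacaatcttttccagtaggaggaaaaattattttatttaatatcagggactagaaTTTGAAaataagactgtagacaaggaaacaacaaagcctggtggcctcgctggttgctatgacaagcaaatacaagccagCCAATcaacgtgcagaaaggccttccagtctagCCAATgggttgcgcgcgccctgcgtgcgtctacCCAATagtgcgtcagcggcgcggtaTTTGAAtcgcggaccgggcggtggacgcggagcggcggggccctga
Promoters were at hand for 22 of the 27 genes. CCAAT was found in 18 of them (81.82%), against 10248 of 27025 promoters overall (37.92%), and TTTGAA in 17 (77.27%), against 18.11% overall. Both stood in 16 of the 22 (72.73%), against 7.123% overall. A match is a description of the letters and not of a bound site.

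Ube2c, the ubiquitin carrier of the anaphase-promoting complex, had 60.4, 67.3, 65.6 and 61.9 CPM in LX-A2003 168h libraries, against 6.86, 4.00, 4.25 and 7.34 CPM in LX-A1656 72h libraries. The groups were far apart, and PBS averaged 3.96 CPM at 168 h and 2.21 CPM at 72 h. The direct difference was 3.50 ± 0.25 (adjusted p = 1.42e-14). Ccnb2, a mitotic cyclin, had 34.2, 29.9, 28.0 and 33.1 CPM in LX-A2003 168h, against 4.17, 2.91, 5.31 and 4.10 CPM in LX-A1656 72h (2.92 ± 0.24, adjusted p = 8.61e-13). Cdc20, which activates the anaphase-promoting complex, had 47.2, 60.5, 49.2 and 40.1 CPM against 4.95, 2.27, 2.45 and 3.79 CPM (3.86 ± 0.33, adjusted p = 1.08e-12). Its level was 17.0 CPM in LX-A1656 168h and 3.81 CPM in LX-A2003 72h on average, and the exchanged pair differed by 2.15 ± 0.31. Kif20a, a kinesin of cytokinesis, and Birc5, a survivin that guides chromosome segregation, had differences of 3.07 and 3.00. Cenpm, a centromere protein, Cdkn3, a phosphatase of the cell cycle, and Iqgap3, a scaffold of dividing cells, were among the genes with the highest direct fold changes, at 3.81, 3.64 and 3.62. Over the list, summed CPM ran from 582.6 to 702.5 in LX-A2003 168h and from 80.0 to 106.8 in LX-A1656 72h.

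DNA replication genes moved less evenly. Of 26 tested, 15 were higher and 1 lower, with a median of 0.77. The exchanged pair had 7 higher and 3 lower, beside 31% higher and 28.3% lower over all genes. Nothing is read from its higher count, which was not above that share. In the PBS-adjusted difference 5 were higher and 1 lower. Mcm6, a subunit of the replicative helicase, had 29.0 to 44.8 CPM in LX-A2003 168h against 8.27 to 12.9 CPM in LX-A1656 72h (1.80 ± 0.27, adjusted p = 1.13e-06). Uhrf1, which keeps DNA methylation through replication, had 21.3 to 43.2 CPM against 5.76 to 13.3 CPM. Tk1, thymidine kinase, was placed differently relative to PBS: LX-A2003 168h had 21.3 to 38.9 CPM and LX-A1656 72h 4.16 to 7.47 CPM, beside PBS means of 38.6 and 30.8 CPM. Against PBS the log2 fold change of Tk1 was -0.48 in LX-A2003 168h and -2.38 in LX-A1656 72h. Of 8 histone genes tested 7 were higher and none lower; without replicate 2 of LX-A2003 168h this count was 4, and none was called in the PBS-adjusted difference. Histone genes of the exchanged pair were higher in 5 cases and lower in 1. Reads of histone genes may be shared between near-identical copies. Ccnd1, the cyclin that drives entry into the cycle, had 131.2, 112.9, 88.2 and 104.5 CPM in LX-A2003 168h, against 11.8, 8.36, 9.06 and 11.8 CPM in LX-A1656 72h. PBS averaged 6.56 and 7.31 CPM at 168 h and 72 h. All LX-A2003 168h libraries were above all LX-A1656 72h and PBS libraries, while LX-A1656 72h and PBS libraries overlapped (3.41 ± 0.27, adjusted p = 2.46e-13). The compound term was also called for Ccnd1 (0.71, adjusted p = 0.00163), with 31.2 CPM on average in LX-A1656 168h.

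**Figure D4:**
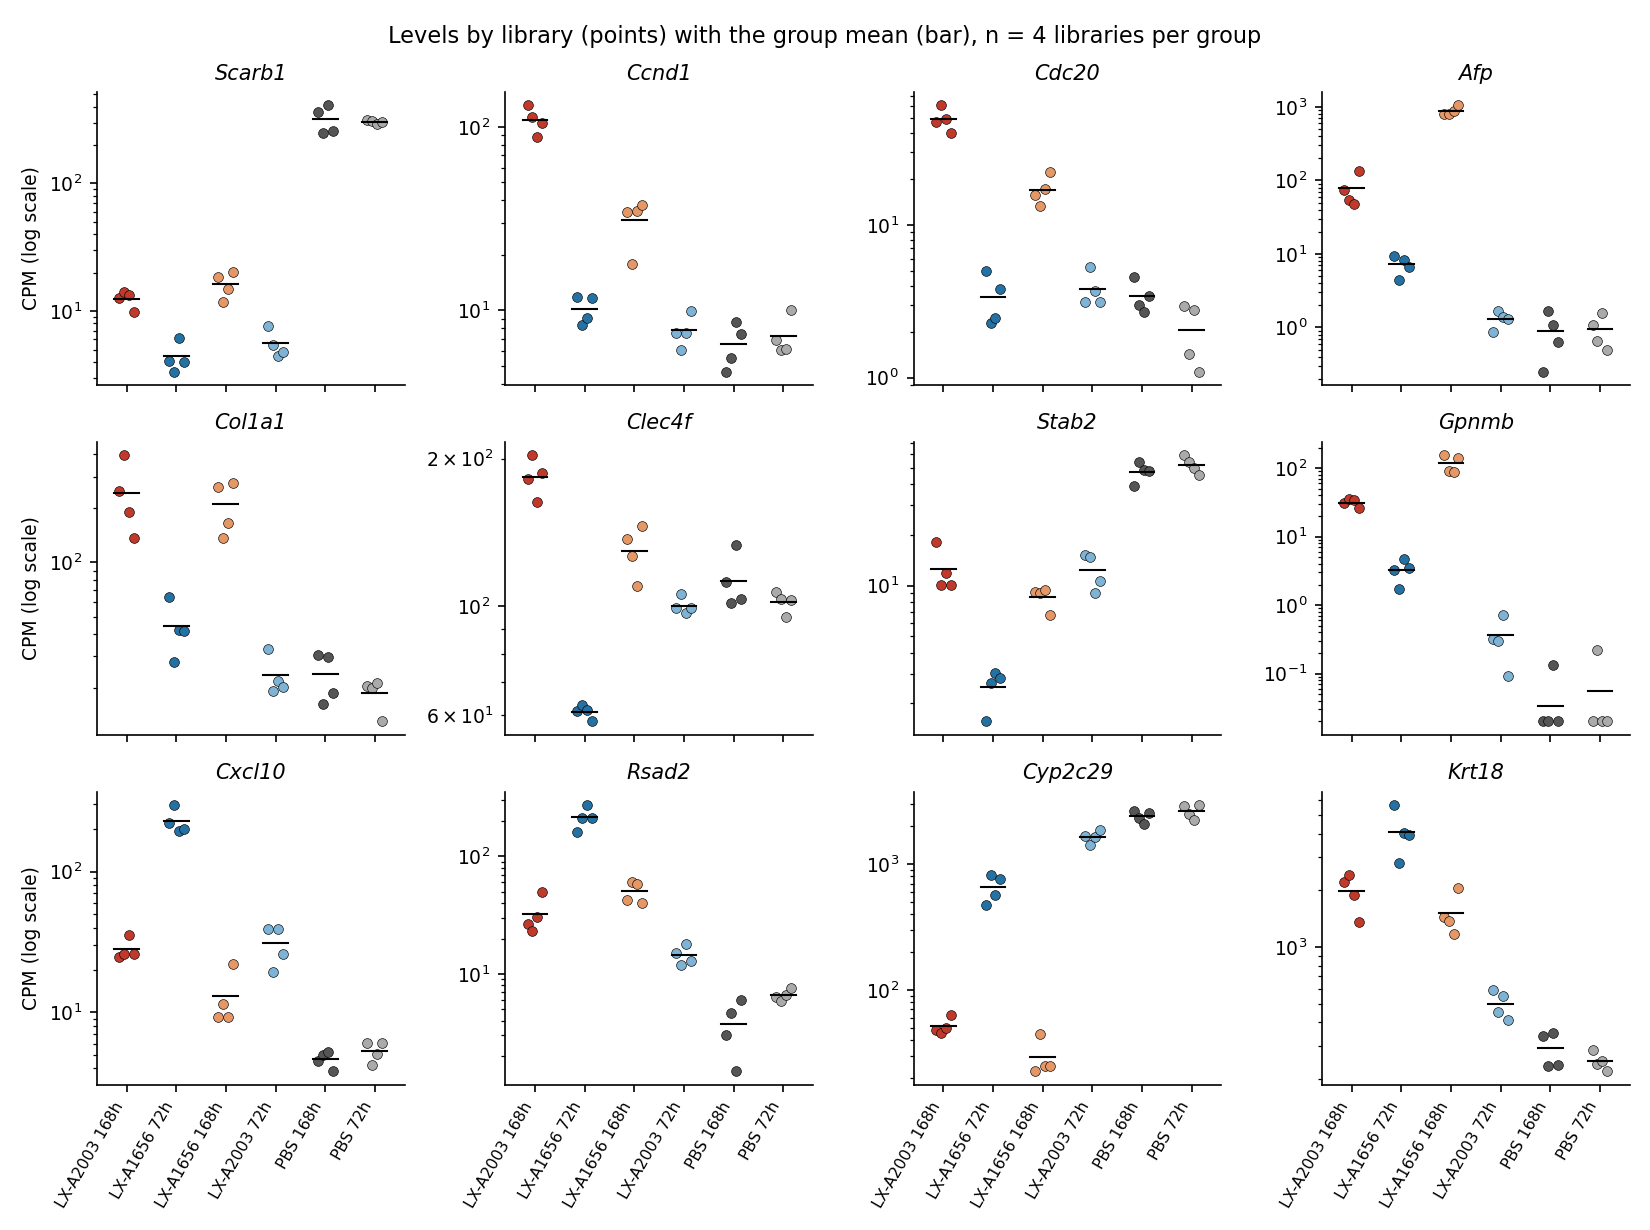
CPM of 12 genes on a log scale by library (points) with the group mean (bar) in 6 groups of 4 libraries; values under 0.02 CPM, which occur for Gpnmb in PBS, are drawn at 0.02. Ccnd1 and Cdc20 are higher in every LX-A2003 168h library than in any LX-A1656 72h or PBS library, Cxcl10 and Rsad2 are highest in LX-A1656 72h, and Stab2 is below PBS in every treated group shown.

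Genes of fetal and progenitor liver were higher in 10 of 18 tested and lower in 1 (median 1.01), and in the exchanged pair in 14 with 1 lower. Afp, the fetal serum protein of hepatocytes, had 75.2, 54.5, 48.1 and 134.5 CPM in LX-A2003 168h, against 9.47, 4.46, 8.33 and 6.71 CPM in LX-A1656 72h. PBS libraries averaged 0.905 and 0.955 CPM, so both groups were above PBS and LX-A2003 168h was above LX-A1656 72h in every library (3.43 ± 0.26, adjusted p = 7.82e-14). The terms had opposite signs here, with a time term of 6.41 and a compound term of -2.98, and LX-A1656 168h averaged 889 CPM. H19, an imprinted fetal long noncoding RNA, had 12.6, 9.38, 7.58 and 13.0 CPM in LX-A2003 168h libraries and a single count in the 4 LX-A1656 72h libraries, a ratio of 520 (95% exact interval from counts 92.9 to 20570). Gpc3, a fetal glypican, had 6.33 to 11.1 CPM against 0.631 to 1.13 CPM, and Prom1, a progenitor surface marker, 4.64 to 5.38 CPM against 0.163 to 0.782 CPM. Gpc3 was below its PBS mean of 1.86 CPM in LX-A1656 72h and above the mean of 2.03 CPM in LX-A2003 168h.

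Among the genes with the highest direct fold changes at 10 CPM or more, beside H19 and the mitotic genes, were several with means under 1.1 CPM in both PBS groups. Cdhr2, a cadherin of microvilli, had 16.7, 19.9, 21.3 and 12.4 CPM in LX-A2003 168h against 0.261, 0.364, 0.163 and 0.316 CPM in LX-A1656 72h (5.94 ± 0.42, adjusted p = 1.42e-14). Akr1b7, an aldo-keto reductase, had 7.22 to 16.2 CPM against 0 to 0.395 CPM (5.58 ± 0.50; 4.98 without both libraries that stood apart in the pair). Spink1, a secreted trypsin inhibitor, had 51.1 to 98.3 CPM against 1.18 to 2.78 CPM (5.16 ± 0.42). No value of one group reached into the other for any of these 3, and in the exchanged pair they were higher by 5.93, 5.60 and 6.11. Npy, a neuropeptide, had 54.4 to 115.7 CPM against 1.73 to 9.82 CPM (3.97 ± 0.36), and Plat, tissue plasminogen activator, 97.6 to 186.4 CPM against 3.91 to 24.2 CPM (3.70 ± 0.33). For Npy and Plat the compound term was negative, at -2.61 and -2.84, and LX-A1656 168h averaged 293 and 579.7 CPM. Neurl1b, a ubiquitin ligase of the Notch pathway, had 9.74 to 14.3 CPM against 0.182 to 1.91 CPM (3.60, or 4.25 without those 2 libraries). Tpsab1, a tryptase of mast cells, had 5.62 to 16.6 CPM against 0.0817 to 0.782 CPM, and averaged 129.1 CPM in LX-A1656 168h. Its difference was 5.14, and 6.02 without replicate 1 of LX-A1656 72h. Of 4 tested mast cell and basophil markers 3 were higher, and 3 of 4 were in the exchanged pair.

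Collagen and matrix genes were higher in 21 of 29 and lower in 1 (median 1.52), and 18 were higher in the PBS-adjusted difference. The exchanged pair had 25 higher and 2 lower. Against PBS, 24 were higher and 1 lower in LX-A2003 168h, and 9 higher and 3 lower in LX-A1656 72h. Col1a1, the main chain of fibrillar collagen I, had 248.7, 393.7, 190.5 and 137.4 CPM in LX-A2003 168h, against 64.5, 27.8, 42.1 and 41.7 CPM in LX-A1656 72h and PBS means of 23.9 and 18.7 CPM. The groups did not overlap, and replicate 2 of LX-A2003 168h was the highest (2.46 ± 0.32, adjusted p = 7.91e-08). Col3a1, the chain of collagen III, had 106.9 to 208.5 CPM against 20.3 to 41.9 CPM, and Col1a2, the partner chain of collagen I, 67.6 to 148.5 CPM against 18.1 to 25.9 CPM. Bgn, a small proteoglycan of matrix, and Col14a1, a fibril-associated collagen, had differences of 1.47 and 1.69. Of 18 matrix proteases and inhibitors, 6 were higher and none lower (15 and 2 in the exchanged pair), among them Mmp2, a gelatinase, and Timp2, its inhibitor. Of 15 tested markers of stellate cells and myofibroblasts, which make matrix, 11 were higher and none lower (13 of 15 in the exchanged pair). This list also holds Col1a1 and Col3a1, so its count and sum partly repeat the collagen genes above. The summed CPM of the markers ran from 1099.4 to 1651.2 in LX-A2003 168h, from 528.1 to 591.4 in LX-A1656 72h, and from 492.5 to 547.6 over both PBS groups. Pdgfra, a growth factor receptor of stellate cells, had 14.4 to 18.9 CPM against 5.29 to 6.17 CPM (1.65 ± 0.18), and Reln, a secreted glycoprotein of stellate cells, 142.4 to 269.5 CPM against 44.0 to 93.1 CPM. In whole liver, more cells of a type and more RNA per cell cannot be told apart, and the part of cell numbers in these differences was not tested.

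Macrophage genes were mostly higher. All 12 tested Kupffer cell markers were called higher, with a median of 1.46, and 7 were in the PBS-adjusted difference; the exchanged pair had 9 higher and 1 lower. The count was 8 without replicate 4 of LX-A2003 168h, 9 without replicate 1 of LX-A1656 72h and 7 without both. Clec4f, a lectin that in mouse is particular to Kupffer cells, had 181.9, 203.2, 163.2 and 186.8 CPM in LX-A2003 168h, against 61.1, 62.8, 61.4 and 58.1 CPM in LX-A1656 72h. PBS averaged 112.5 ± 14.5 and 102 ± 5.04 CPM, so the PBS libraries lay between the 2 groups (1.59 ± 0.12, adjusted p = 7.75e-14). Cd5l, a survival factor secreted by macrophages, had 222.8 to 314.1 CPM against 84.0 to 95.0 CPM, both above the PBS means of 63.8 and 59.2 CPM. Summed CPM of the Kupffer list ran from 723.7 to 903.2 in LX-A2003 168h, from 309.5 to 336.5 in LX-A1656 72h, and from 390.6 to 450.3 over both PBS groups. Lipid-associated macrophage markers were higher in 8 of 10 and lower in none (median 1.54), and the exchanged pair had 10 of 10. Gpnmb, a lysosomal glycoprotein of phagocytes, had 30.6, 35.2, 34.0 and 26.2 CPM against 3.21, 1.73, 4.65 and 3.47 CPM (3.26 ± 0.35, adjusted p = 5.86e-10), and PBS libraries together held 3 counts or fewer per group. Trem2, a lipid-sensing receptor of these macrophages, had 9.27 to 13.1 CPM against 1.13 to 2.82 CPM (2.68 ± 0.38). Of 8 markers of monocytes and recruited macrophages 6 were higher and none lower (7 and 1 in the exchanged pair), and Lyz2, lysozyme, had 206.4 to 270.1 CPM against 112.5 to 158.9 CPM. The PBS-adjusted difference called 2 of these 8 markers higher. Lysosome genes were higher in 18 of 29 and lower in 1, with a median of 0.60 (19 and 4 in the exchanged pair, and 9 and 1 in the PBS-adjusted difference). Gpnmb and Cd63 stand in both this list and that of lipid-associated macrophages. Cd63, a lysosomal tetraspanin, had 105.7 to 162.7 CPM against 23.8 to 42.0 CPM, and Psap, the precursor of the saposins, 590.8 to 859.7 CPM against 282.2 to 435.6 CPM. Of 8 neutrophil markers none was higher and 1 was lower. S100a9, a calcium-binding protein, had 2.55 to 4.18 CPM in LX-A2003 168h against 6.94 to 10.6 CPM in LX-A1656 72h. In the exchanged pair all 8 were higher. Summed neutrophil markers ran from 12.4 to 21.4 CPM in LX-A2003 168h and from 19.8 to 25.5 CPM in LX-A1656 72h, and their part in the other results was not tested.

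Markers of sinusoidal endothelium were mostly lower than PBS in both groups. Of 14 tested 13 were higher in LX-A2003 168h than in LX-A1656 72h and none lower (median 0.83), whereas the exchanged pair had 3 higher and 8 lower. The compound term called 11 higher and 1 lower, and the time term 7 higher and 3 lower. Against PBS, 9 were lower and 1 higher in LX-A2003 168h, and 12 lower and none higher in LX-A1656 72h. Stab2, a scavenger receptor of sinusoidal cells that is known to take up phosphorothioate oligonucleotides, had 18.2, 10.0, 11.9 and 10.1 CPM in LX-A2003 168h and 1.56, 2.64, 3.02 and 2.84 CPM in LX-A1656 72h. PBS averaged 47.2 ± 6.15 and 52.0 ± 6.06 CPM, and all 8 libraries were below every PBS library (direct 2.31 ± 0.22, adjusted p = 4.31e-11). Kdr, the main receptor for vascular endothelial growth factor, had 12.7 to 17.7 CPM against 2.92 to 3.55 CPM, with PBS means of 35.2 and 41.1 CPM. LX-A1656 168h and LX-A2003 72h stood between the 2 groups for Kdr, at 8.21 and 11.3 CPM on average. For Stab2 they averaged 8.57 and 12.4 CPM, and the LX-A2003 72h mean lay within the range of LX-A2003 168h. Stab1, the related scavenger receptor, had 47.6 to 62.9 CPM against 29.7 to 37.8 CPM. Summed CPM of the list ran from 355.3 to 397.6 in LX-A2003 168h, from 176.3 to 223.4 in LX-A1656 72h, and from 595.9 to 710.5 over both PBS groups. Of 12 markers shared by endothelia at large 6 were higher and none lower (8 and 2 in the exchanged pair), among them Plvap, a protein of endothelial diaphragms, with 143.5 to 269.4 CPM against 51.6 to 107 CPM. Vwf, von Willebrand factor, had a difference of 1.49 ± 0.29.

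Part of the hepatocyte metabolic genes, those of the pericentral zone and of amino acid breakdown, were more often higher than lower in LX-A2003 168h. Of 18 Wnt and pericentral genes 11 were higher and 1 lower (median 0.68), while the exchanged pair had 3 higher and 10 lower. Glul, glutamine synthetase of the innermost hepatocytes, had 263.4, 210.2, 190.9 and 202.1 CPM in LX-A2003 168h, against 116.9, 114.7, 87.5 and 104.5 CPM in LX-A1656 72h. PBS averaged 366.2 and 359.8 CPM, and the 2 groups did not overlap (1.03 ± 0.16, adjusted p = 2.19e-06). Oat, ornithine aminotransferase, overlapped with PBS in LX-A2003 168h, with 566.2 to 1122.9 CPM against 198.3 to 450 CPM in LX-A1656 72h and PBS means of 944 and 1145.9 CPM. Cyp1a2, a drug-metabolising enzyme of the same zone, went the other way, with 298.7 to 464 CPM against 740 to 1018.1 CPM (-1.07 ± 0.16). Amino acid breakdown and the urea cycle had 11 of 24 higher and 1 lower; the higher count was 7 without replicate 1 of LX-A2003 168h and 5 when only the 2 groups compared were fitted. In this list 7 were higher and 10 lower in the exchanged pair, with a median of -0.26. The PBS-adjusted difference called 4 of its members higher and 1 lower. Slc25a15, the mitochondrial ornithine carrier, had 184.8 to 295.4 CPM against 54.4 to 95.8 CPM (1.68 ± 0.18), with PBS means of 456.7 and 494.3 CPM. Prodh, proline dehydrogenase, had 162.2 to 361.1 CPM against 87.9 to 111.3 CPM. Otc, ornithine transcarbamylase of the urea cycle, was the lower member, at 299.8 to 459.4 CPM against 552.1 to 1142.5 CPM.

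Genes of cholesterol export, which acts on the same lipid as Scarb1, were higher in 7 of 14 and lower in 2, while the exchanged pair had 4 higher and 9 lower, with a median of -0.87. The compound term called 10 higher and none lower. The PBS-adjusted difference called 5 higher and 2 lower, with a median of -0.06 beside a direct median of 0.21. Abcg5 and Abcg8 form the canalicular sterol transporter. Abcg5 had 47.9 to 67.1 CPM in LX-A2003 168h against 16.4 to 21.8 CPM in LX-A1656 72h (1.56 ± 0.20, adjusted p = 2.76e-08), and Abcg8 had 98.9 to 159.8 CPM against 33.7 to 83.7 CPM. Both were below their PBS means, which were 159 and 181.7 CPM for Abcg5. Abcg1, a macrophage and endothelial exporter, was above PBS instead, with 46.1 to 72.4 CPM against 15.5 to 26.9 CPM and PBS means of 10.6 and 9.36 CPM. Sterol synthesis genes were higher than PBS in both groups, with 14 of 17 in LX-A2003 168h and 15 of 17 in LX-A1656 72h. In the direct difference 6 of 17 were lower and 2 higher, and in the exchanged pair 6 lower and 5 higher. The exchanged counts were near the shares over all genes there, 31% higher and 28.3% lower. Cyp51, lanosterol demethylase, had 64.0 to 87.9 CPM in LX-A2003 168h against 107.6 to 206.4 CPM in LX-A1656 72h (-1.08 ± 0.19, adjusted p = 2.33e-05), and both PBS groups averaged 17.4 CPM. Glycolysis enzymes that most cells express were higher in 9 of 15 and lower in none (median 0.76; 11 and 2 in the exchanged pair). Pkm, pyruvate kinase of non-hepatocyte type, had 184.9 to 306.9 CPM against 63.0 to 110.9 CPM, and Ldha, lactate dehydrogenase, 1510.4 to 2007 CPM against 792.2 to 1116.9 CPM. Targets of YAP and TAZ, the factors of organ growth, were higher in 10 of 19 and lower in none (15 and 1 in the exchanged pair), including Ctgf, a matricellular growth factor, at 38.6 to 71.6 CPM against 12.9 to 21.0 CPM (1.48 ± 0.20).

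Interferon-stimulated genes were lower in LX-A2003 168h than in LX-A1656 72h in 21 of 33 tested and higher in 4, with a median of -0.96. Both groups were above PBS, with 29 of 33 higher in LX-A2003 168h and 30 in LX-A1656 72h. The compound term called 25 lower and 1 higher, and the time term 18 lower and 13 higher. The exchanged pair had 16 higher and 8 lower. The promoters of 2 members of the list, Cxcl10 and Rsad2, are shown, and both stood among the 12 lowest direct fold changes. They were taken by small p in the direct difference from members whose promoter held the element marked below. Their matches therefore follow from the choice. Cxcl10 lies at chr5:92348840-92349139 and Rsad2 at chr12:26456403-26456702, both on the minus strand of GRCm38.p6, with the same window and source as above. Capitals mark the core of the interferon-stimulated response element (ISRE), searched on both strands.
Cxcl10: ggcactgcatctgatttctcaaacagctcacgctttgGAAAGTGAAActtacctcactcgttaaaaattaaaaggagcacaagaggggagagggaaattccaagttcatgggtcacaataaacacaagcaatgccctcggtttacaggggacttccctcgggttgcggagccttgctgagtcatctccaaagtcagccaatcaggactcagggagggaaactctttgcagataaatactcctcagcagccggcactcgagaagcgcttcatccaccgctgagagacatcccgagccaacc
Rsad2: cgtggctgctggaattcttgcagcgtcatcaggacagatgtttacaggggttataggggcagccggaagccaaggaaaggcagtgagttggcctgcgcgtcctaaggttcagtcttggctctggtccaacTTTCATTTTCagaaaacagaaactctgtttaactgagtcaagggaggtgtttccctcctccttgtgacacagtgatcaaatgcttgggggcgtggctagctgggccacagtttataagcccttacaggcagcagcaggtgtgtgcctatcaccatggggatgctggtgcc
This element was found in 14 of the 23 promoters at hand for the list (60.87%), against 3.489% of all 27025 promoters. The letters describe the window and show no binding.

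Cxcl10, a chemokine that draws T cells, had 24.8, 25.9, 35.5 and 26.1 CPM in LX-A2003 168h, against 221.7, 296.3, 193.8 and 200.6 CPM in LX-A1656 72h. PBS averaged 4.64 and 5.36 CPM, so all 8 libraries were above PBS and the groups were far apart (-3.02 ± 0.25, adjusted p = 1.07e-12). Rsad2, the antiviral protein viperin, had 26.6, 23.0, 30.5 and 49.8 CPM against 162.6, 211.7, 272.5 and 212.5 CPM (-2.72 ± 0.26, adjusted p = 2.51e-11). In the exchanged pair the log2 fold change was -1.25 for Cxcl10 and 1.80 for Rsad2. Cmpk2, a nucleotide kinase induced by interferon, had 25.1 to 36.2 CPM against 124.5 to 175.9 CPM. Igtp, a guanosine triphosphatase induced by interferon gamma, had 28.2 to 36.3 CPM against 102.2 to 119.6 CPM, and only the LX-A1656 72h libraries were above the PBS means of 36.8 and 43.0 CPM. The 4 members that were higher, named here after their values were seen, were Ifi27l2a (1.44), Oas3 (1.16), Oas1g (0.81) and Oasl2 (0.76). The Oas genes encode or resemble oligoadenylate synthetases. Chemokines as a list were mixed, with 7 of 19 higher and 6 lower (14 and 3 in the exchanged pair). Cxcl11, a ligand of the receptor Cxcr3, had 1.30 to 3.96 CPM against 11.3 to 14.9 CPM. Ccl6 and Ccl24, which macrophages produce, were higher instead: Ccl6 had 271.9 to 326.9 CPM against 54.8 to 85.4 CPM (2.00 ± 0.27), and Ccl24 had 31.7 to 47.5 CPM against 9.30 to 12.5 CPM (1.78 ± 0.24). Ciita, the master regulator of class II genes, had 7.18 to 11.6 CPM against 1.80 to 3.13 CPM, and 4 of 17 antigen presentation genes were higher and 3 lower (8 and 3 in the exchanged pair). The lower count was 1 without replicate 1 or replicate 4 of LX-A2003 168h, without replicate 1 of LX-A1656 72h, and without both libraries that stood apart in the pair. Direct shares of the antigen presentation list were near those of all genes, 20.1% higher and 14.4% lower.

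Proteasome subunits were lower in 15 of 24 and higher in none, with a median of -0.58. Against PBS, 1 was higher and 6 lower in LX-A2003 168h, and 15 were higher and 1 lower in LX-A1656 72h. Psmd12, a lid subunit, had 140.7, 75.5, 132.8 and 157.7 CPM in LX-A2003 168h, against 220.4, 246.1, 227.5 and 248.7 CPM in LX-A1656 72h, with PBS means of 184.4 and 177.5 CPM. All LX-A2003 168h values were the lower ones (-0.90 ± 0.14, adjusted p = 1.56e-06). Psmc1, a base ATPase, differed by -0.64 ± 0.11 and Psmc5, another, by -0.63 ± 0.13. The exchanged pair had 1 of 24 higher and 5 lower. Chaperones and other unfolded protein response genes of the endoplasmic reticulum were lower in 7 of 19 and higher in 1 in the direct difference, but none was lower and 1 higher in the PBS-adjusted difference (median -0.05), and 17 were lower and none higher in the exchanged pair. Hspa5, the chaperone BiP, had 685.2 to 1155.1 CPM against 1341.7 to 2005.5 CPM (-1.03 ± 0.23). PBS libraries averaged 923.6 ± 167 CPM of Hspa5 at 168 h and 1529.2 ± 528 CPM at 72 h (SD, n = 4 each), and the PBS-adjusted difference was -0.30 (adjusted p = 0.579). With library totals alone 4 in place of 7 members of this list were lower.

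Hepatocyte genes under growth hormone and genes of xenobiotic metabolism were more often lower than higher. Of 21 growth hormone axis genes 9 were lower and 2 higher, beside 17 lower against PBS in LX-A2003 168h and 15 in LX-A1656 72h; the exchanged pair had 16 lower and 3 higher. Mup21, a major urinary protein, had 1.17, 0.743, 1.25 and 1.55 CPM in LX-A2003 168h, against 45.5, 48.5, 32.6 and 35.3 CPM in LX-A1656 72h and PBS means of 125.2 and 156.5 CPM. The 2 groups were far apart and both below PBS (-5.06 ± 0.46, adjusted p = 2.47e-11). Mup genes are near-identical copies, so their read assignment is uncertain. Hsd3b5, a steroid reductase of male mouse liver, had 3.34 to 11.2 CPM against 27.0 to 156.1 CPM (-3.35, or -2.71 without replicate 2 of LX-A1656 72h), and Slco1a1, an organic anion transporter, 37.5 to 53.5 CPM against 204.9 to 417.8 CPM. Of 29 xenobiotic genes 12 were lower and 4 higher, and the PBS-adjusted difference called 12 lower and 2 higher, beside 16 lower and 10 higher in the exchanged pair. Cyp2c29, a cytochrome P450, had 48.0, 45.5, 50.1 and 63.1 CPM in LX-A2003 168h, against 475.1, 825.8, 565.5 and 755.1 CPM in LX-A1656 72h (-3.66 ± 0.25, adjusted p = 3.73e-15). PBS averaged 2400.9 and 2644.1 CPM, and no library of either group reached the PBS range. Cyp2f2, a periportal P450, and Sult2a8, a sulfotransferase of bile acids, had log2 fold changes of -2.54 and -3.57. Ces1e, a carboxylesterase, had 4.46 to 8.11 CPM against 59.9 to 146.8 CPM (-3.72 ± 0.23), and reads of the Cyp2, Sult and Ces1 families may be shared between paralogs. Car3, a carbonic anhydrase abundant in hepatocytes, had 226.6 to 300.9 CPM against 1121.4 to 2969.3 CPM, with PBS means of 13940 and 12261 CPM. Inmt, an N-methyltransferase, had 8.67 to 15.9 CPM against 49.4 to 154.2 CPM, and Arrdc3, an arrestin-domain adaptor, 15.1 to 27.7 CPM against 75.3 to 212.3 CPM. Car1, a carbonic anhydrase of erythroid cells, had 1.96 to 5.98 CPM against 25.8 to 62.5 CPM, and summed erythroid markers ran from 80.9 to 126.1 CPM in LX-A2003 168h and from 176.8 to 274.6 CPM in LX-A1656 72h. LX-A1656 168h averaged 11.3 CPM of Car3 and 29.3 CPM of Cyp2c29, and LX-A2003 72h averaged 7375 and 1643.8 CPM.

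Respiratory chain genes were lower than PBS in 29 of 29 in LX-A2003 168h and in 21 of 29 in LX-A1656 72h, and 7 were lower and none higher directly. That direct count was 3 without replicate 2 of LX-A1656 72h and 2 with library totals alone, and the exchanged pair had 27 lower and none higher. Keratins and junction genes were lower in 6 of 20 and higher in 2 (5 and 8 in the exchanged pair). Krt18, a keratin of hepatocytes, had 2228.2, 2417.3, 1895.2 and 1359.4 CPM in LX-A2003 168h, against 5659.9, 2789.2, 4007.6 and 3912.9 CPM in LX-A1656 72h. Each of these was above the PBS means of 291.2 and 248.8 CPM, and the LX-A2003 168h values were the lower ones (-1.05 ± 0.20, adjusted p = 4.94e-05). Krt20, a keratin of intestinal and bile duct epithelium, was higher, with 11.1 to 30.7 CPM against 0.364 to 4.26 CPM and 185.7 CPM in LX-A1656 168h.

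Stress programmes were above PBS in most members in both groups. Of 28 AP-1 and immediate early genes 25 were higher in LX-A2003 168h and 26 in LX-A1656 72h against PBS, and 8 were higher and 3 lower directly. Atf3, a stress-induced transcription factor, had 69.7 to 85.1 CPM against 43.0 to 56.9 CPM with PBS means of 0.918 and 1.25 CPM (0.74 ± 0.18, adjusted p = 0.00147). Klf4, an epithelial transcription factor, had 11.0 to 13.6 CPM against 1.88 to 3.39 CPM (2.31 ± 0.24). Gadd45a, a growth arrest gene, was lower, with 16.2 to 23.5 CPM against 47.2 to 54.1 CPM and PBS means of 21.2 and 25.5 CPM. Of 27 p53 targets 20 were higher than PBS in each group, and 7 were higher and 2 lower directly. Btg2, an antiproliferative p53 target, had 97.2 to 120.6 CPM against 32.4 to 65.7 CPM, and Psrc1, a spindle protein, 6.95 to 11.3 CPM against 1.45 to 3.39 CPM. Integrated stress response genes were higher in 5 of 19 and lower in 4 (lower in 2 without replicate 1 or replicate 3 of LX-A2003 168h, and higher in 3 without both libraries that stood apart in the pair), and NRF2 targets in 6 of 21 and lower in 4 (9 and 8 in the exchanged pair). The exchanged pair had more of these genes higher, with 24 of 28 AP-1 genes, 20 of 27 p53 targets and 12 of 19 integrated stress response genes higher. In the direct difference 20.1% of all genes were higher and 14.4% lower, and nothing is read from the direct counts of these lists.

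**Figure D5:**
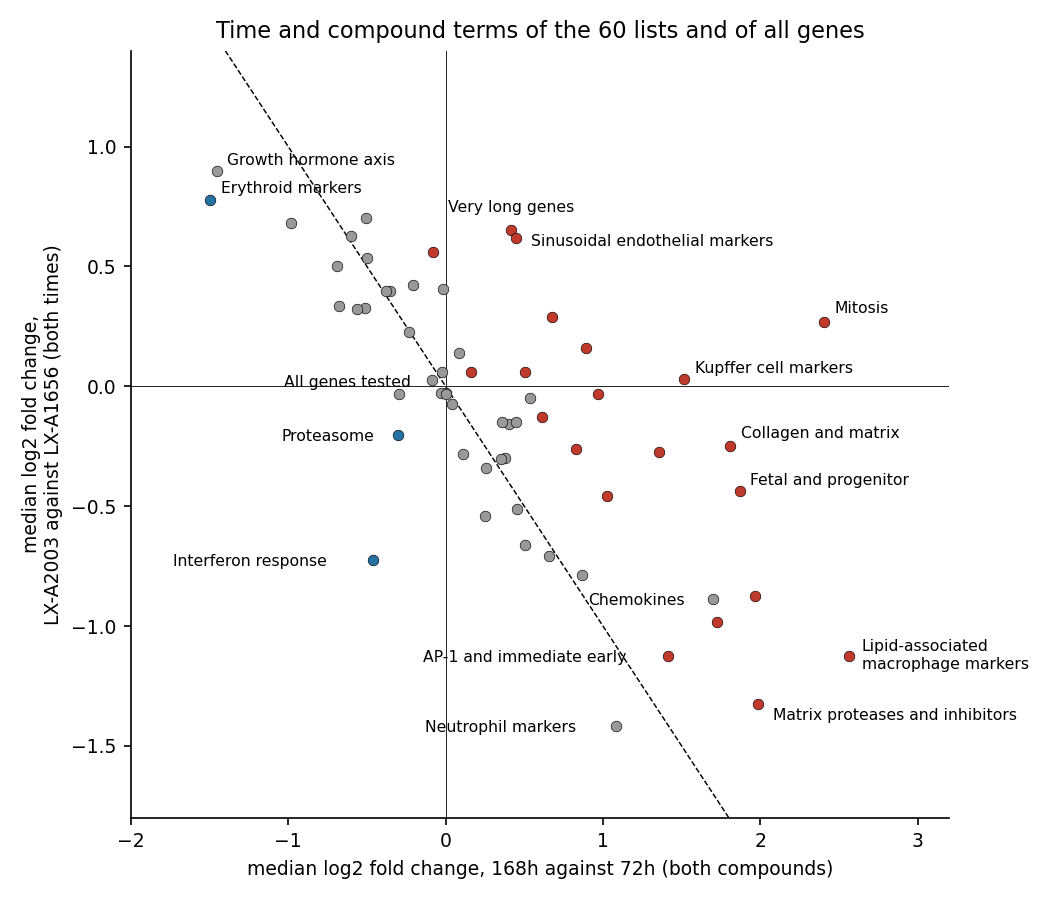
Median log2 fold change of 60 gene lists and of all genes tested in the time term (168 h against 72 h, horizontal) and the compound term (LX-A2003 against LX-A1656, vertical); the dashed line marks terms that cancel in the direct difference, and colours mark lists whose direct median was above 0.5 (red) or below -0.5 (blue). Mitosis, Kupffer cell and matrix lists lie far to the right of the line, and the AP-1, neutrophil and growth hormone lists lie closer to it, with time and compound terms of opposite sign.

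In several lists the time and compound terms had opposite signs. AP-1 genes had a median time term of 1.42 and a median compound term of -1.13, with a direct median of 0.55, and neutrophil markers 1.08 and -1.42. Growth hormone genes had -1.45 and 0.90, and p53 targets 0.50 and -0.66. Mitosis, with 2.40 and 0.27, and interferon response, with -0.46 and -0.72, had terms of the same sign.

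Of the 4484 genes called in both responses 119 had opposite signs: 81 were higher in LX-A2003 168h and lower in LX-A1656 72h, and 80 of these were called higher directly. The other 38 were lower in LX-A2003 168h and higher in LX-A1656 72h, and 37 were called lower directly. Genes chosen for opposite responses are nearly bound to be called in the direct and PBS-adjusted differences. These counts, and the p-values of the genes named here, therefore follow from the choice. Beside H19, the named genes of this kind were Mest, Nek2, Cyp2c55 and 4930581F22Rik. Mest, an imprinted hydrolase of growing tissue, had 27.7, 19.6, 21.0 and 20.9 CPM in LX-A2003 168h, against 1.91, 4.18, 4.57 and 4.26 CPM in LX-A1656 72h. PBS averaged 4.93 and 6.19 CPM, between the 2 groups (PBS-adjusted difference 2.90 ± 0.35, adjusted p = 1.14e-07). Nek2, a centrosome kinase of mitosis, had 19.3 to 26.4 CPM against 3.10 to 5.13 CPM with PBS means of 9.02 and 9.82 CPM. Cyp2c55, a P450, had 15.4 to 22.0 CPM against 2.64 to 5.60 CPM with PBS means of 6.35 and 8.65 CPM, with a compound term of 1.83 and a time term of 0.36. The named gene of the reverse kind, 4930581F22Rik, a transcript with no role given here, had 0.650 to 3.96 CPM against 8.60 to 13.3 CPM, and PBS averaged 4.37 and 4.42 CPM.

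The 5 lowest PBS-adjusted differences by the naming rule were those of Mup21 and Ces1e, described above, and of Dio1, Ugt2b38 and Sult5a1. Dio1, the deiodinase that activates thyroid hormone, had 0.186 to 0.537 CPM in LX-A2003 168h against 1.81 to 3.30 CPM in LX-A1656 72h, with PBS means of 15.3 and 8.44 CPM (PBS-adjusted -3.64 ± 0.72, adjusted p = 0.000362). Ugt2b38, a glucuronosyltransferase, had 0 to 0.178 CPM against 2.37 to 6.55 CPM, and reads of this family may be shared between paralogs. Sult5a1, a sulfotransferase, had 3 counts over the 4 LX-A2003 168h libraries and 43 over the 4 LX-A1656 72h libraries, a ratio of 0.0644 (95% exact interval 0.0128 to 0.201, counting error only).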

How the data were processed

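Whole-transcriptome amplicon libraries were made from mouse liver RNA with the Ion AmpliSeq mouse kit, after homogenisation with beads in TriPure, per the labels' protocols. The authors deposited 1 table of raw counts per gene, with 48 libraries in 12 groups of 4; the sources used here name no aligner, genome build or counting tool. Totals ran from 8140065 to 17191129 counts per library. No molecular identifiers are mentioned, so intervals and floors reflect counting error alone.

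Genes were filtered with filterByExpr over the 12 groups (12672 of 23930 kept), scaled by TMM and tested with the robust quasi-likelihood F test of edgeR 4.0.16 (limma 3.58.1, R 4.3.3) in 1 fit of 12 group means with 36 residual degrees of freedom. P-values were adjusted by Benjamini-Hochberg over all genes tested, and the steps were tested on simulated data. CPM used TMM-scaled totals, and principal components used log2 CPM with a prior count of 2. Standard errors were taken from the log2 fold change and its F statistic.

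The pair of groups, the comparisons and the gene lists were chosen with earlier results of these data known, and the lists were described and not tested. The 60 lists (44 pathways and 16 cell type marker lists) hold 1185 entries, of which 1018 were tested, 99 were listed but not tested and 68 are not analysed here. Some genes stand in more than 1 list, so the lists are not independent of each other. Named genes were Scarb1, the 12 highest and 12 lowest called direct fold changes with non-overlapping groups and a mean of at least 10 CPM in 1 group, and the 5 highest and 5 lowest PBS-adjusted ones. The 8 highest and 8 lowest shared responses, up to 4 called members of each list by p, and the 5 largest of opposite sign against PBS were added. Other genes are said to be chosen after their values were seen. Promoters came from RefSeq on GRCm38.p6.

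Alternatives were RLE size factors, library totals alone, no filter on low counts, the replicate number as a block, a fit of only the groups compared, DESeq2 1.42.0, a fold threshold of 1 on the log2 scale (direct difference) and leaving out each library in turn. Leaving out both libraries that stood apart, and the exchanged pair, were added after the data were seen. Same-numbered libraries of LX-A2003 168h and LX-A1656 72h did not deviate together in every pair, so the numbers were not used to pair them.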

Additional observations from a re-analysis of the deposited data

Results flagged for a closer look

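In 14 of 262 groups of 4 libraries, counted over 128 named genes and 3 library measures, 1 library lay far from its 3 fellows by Dixon's ratio. Chance marks about 1 in 20 independent groups, but these groups share the same libraries, and many genes were chosen by their values. No verdict on chance is drawn from the number. In LX-A2003 168h, Cxcl10 was at 35.5 CPM in replicate 3, against 24.8 to 26.1 CPM in the others, Pdgfra at 14.4 CPM in replicate 3, and Plat at 97.6 CPM in replicate 3, against 182.5 to 186.4 CPM. Mest was at 27.7 CPM in replicate 1, and Otc at 459.4 CPM in replicate 4, against 299.8 to 325.7 CPM. In LX-A1656 72h, replicate 1 was apart for Cidec at 708.4 CPM, against 295.3 to 353 CPM, for Ypel4 at 34.1 CPM, for Mest at 1.91 CPM, for Fhit at 0.434 CPM and for Slc25a21 at 0.174 CPM. Replicate 2 was apart for Ctgf at 12.9 CPM, Ugt2b38 at 6.55 CPM and H19 at 0.0909 CPM, which is 1 count, and replicate 4 for Cdkn3 at 1.26 CPM. None of these libraries crossed into the other group except for Fhit, Cidec and Slc25a21, which overlapped.

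The responses against PBS differed between LX-A2003 168h and LX-A1656 72h, by the test of the difference itself, at 1812 genes. Among the named ones the PBS-adjusted log2 fold changes were 2.90 for Mest, 2.63 for Cyp2c55, 2.58 for Nek2, 1.42 for Scarb1, -2.26 for 4930581F22Rik and -3.64 for Dio1. Apart from Scarb1, these genes were named for opposite responses or for a low PBS-adjusted difference, so their calls follow from the choice.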

How the results depend on the processing

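Over the alternatives other than leaving out 1 library and the fold threshold, the direct difference called 3364 to 5337 genes beside 4372 as reported, the PBS-adjusted difference 1332 to 2190 beside 1812, the time term 7176 to 7728 beside 7254 and the compound term 4509 to 5378 beside 4936. Leaving out 1 library at a time gave 3570 to 4870, 1521 to 1887, 6966 to 7547 and 4551 to 5138. Each of these counts stayed within 1.5 times the reported one. With a fold threshold of 1 on the log2 scale, run for the direct difference, 1932 genes were called, fewer by construction. The 4 genes called between PBS 168h and PBS 72h became 2 with no filter on low counts, 2 with the replicate block and 19 with DESeq2, and 2 to 4 when 1 library was left out, with 2 without replicate 1 or replicate 2 of PBS 72h; the cause was not tested.

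Of the alternatives run for 246 fold changes of named genes, 3695 kept the direction and the side of the threshold, 54 lost the call and 4 gained it. In 9 the direction turned, none called in either setting. Most of these genes were named because they were called, and most alternatives kept nearly all libraries. Their stability therefore largely follows from the choice. Without 1 library at a time the direct fold changes ran from -0.0922 to 3.87 for Fhit (0.52 as reported; the highest rests on a group without counts and a prior count), from -0.0486 to 0.215 for Bphl (0.07), from -0.0652 to 0.813 for Cyp2b9 (0.49), from -0.486 to 0.395 for Fosl1 (-0.25) and from -0.119 to 0.543 for Krt5 (0.13). The turns came without replicate 2 of LX-A2003 168h for Fhit, its replicate 4 for Bphl (-0.0251) and Cyp2b9, replicate 1 of LX-A1656 72h for Bphl and Fosl1, and its replicate 2 for Krt5. Without both libraries that stood apart, Bphl was at -0.144, Cldn4 at 0.00498 and Fosl1 at 0.409; the cause was not tested. Same-numbered libraries of the pair had correlations of their deviations from the group means of 0.17, -0.30, -0.03 and 0.30, and not every library correlated best with its own number. With the replicate block the direct difference called 4233 genes. Libraries of 8140065 counts or more limit genes under about 1 CPM most, where single counts set the fold change.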

Other observations

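Clock-controlled genes were among the groups not yet described. Of 18 tested genes of the circadian list 4 were higher in LX-A2003 168h and 1 was lower, and 7 were higher with library totals alone. Over all genes 20.1% were higher and 14.4% lower as reported, and nothing is read from the counts of this list. Of the same genes 5 were higher and 7 lower in the exchanged pair. Usp2, a deubiquitinase under clock control, had 21.7, 18.1, 16.9 and 12.2 CPM in LX-A2003 168h, against 6.17, 4.18, 6.12 and 4.18 CPM in LX-A1656 72h (1.74 ± 0.29, adjusted p = 7.18e-06). Npas2, a partner of the core activator, had 3.30 to 4.64 CPM against 0.273 to 2.61 CPM (1.72, or 2.43 without replicate 3 of LX-A1656 72h), and Hlf, a clock output factor, 4.64 to 5.80 CPM against 2.45 to 3.91 CPM. PBS libraries averaged 41.3 CPM of Npas2 at 168 h and 15.8 CPM at 72 h, and its PBS-adjusted difference was 0.33 (adjusted p = 0.701). Nr1d2, a clock repressor, was the lower member, and its PBS-adjusted difference was 0.11 (adjusted p = 0.879). The labels do not state the clock time of sampling.

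Of 16 genes of iron handling 8 were higher and 2 lower in the direct difference, while the exchanged pair had 6 higher and 7 lower, with a median of -0.39. The lower count was 1 without replicate 1, 2 or 3 of LX-A2003 168h or replicate 1, 2 or 4 of LX-A1656 72h. Slc39a14, a metal importer of hepatocytes, had 259.4, 215, 218.8 and 249.8 CPM in LX-A2003 168h, against 123.7, 161.4, 114.2 and 126.9 CPM in LX-A1656 72h. Steap3, an endosomal ferrireductase, had 23.5 to 59.6 CPM against 13.6 to 19.3 CPM (1.29 ± 0.23, adjusted p = 2.42e-05). Hmox1, heme oxygenase, had 115.2 to 160.2 CPM against 63.2 to 83.8 CPM, both above the PBS means of 28.4 and 24.4 CPM. Slc39a5, a zinc transporter, differed by 3.18 ± 0.53. Of 11 metallothionein and metal transport genes 6 were higher and 2 lower, and 3 were higher without replicate 1 or 2 of LX-A2003 168h or without replicate 4 of LX-A1656 72h. The exchanged pair had 3 of them higher and 4 lower, beside 31% higher and 28.3% lower over all genes.

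Lists of fat handling went both ways. Fatty acid synthesis had 4 of 19 higher and 2 lower, fatty acid oxidation 4 of 19 higher and 3 lower, and lipid droplet genes 4 of 11 higher and 2 lower. In the exchanged pair synthesis had 3 higher and 13 lower, oxidation 4 higher and 13 lower, and lipid droplet genes 6 higher and 4 lower. Without replicate 4 of LX-A1656 72h fatty acid synthesis had 2 higher. Shares of the first 2 lists were near those of all genes, and the 5 genes given here were all higher and do not stand for them. Cidea, a lipid droplet protein, had 3.87, 3.99, 2.14 and 5.11 CPM in LX-A2003 168h, against 0.695, 0.273, 0.163 and 0.316 CPM in LX-A1656 72h (3.36 ± 0.49). Hilpda, an inhibitor of lipolysis, had 31.9 to 51.9 CPM against 11.1 to 23.3 CPM. Scd2, a fatty acid desaturase, had 28.5 to 56.1 CPM against 7.47 to 9.72 CPM, with PBS means of 5.49 and 5.25 CPM (2.24 ± 0.30, adjusted p = 9.39e-08). Angptl4, an inhibitor of lipoprotein lipase, had 137.5 to 178.6 CPM against 39.8 to 77.4 CPM, and Cpt1a, the entry step of mitochondrial fatty acid oxidation, 851.1 to 1089.9 CPM against 462.7 to 674.4 CPM. No value of one group reached into the other for any of these 5 genes.

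Acute phase genes went both ways, with 7 of 24 higher and 3 lower, and with 7 higher and 9 lower in the exchanged pair. Over all genes the direct shares were 20.1% higher and 14.4% lower, and those of the exchanged pair 31% and 28.3%. Nothing is read from the counts of this list. Lcn2, an iron-scavenging lipocalin, had 121.6, 139.1, 109.3 and 148.6 CPM in LX-A2003 168h, against 8.69, 6.36, 26.1 and 13.7 CPM in LX-A1656 72h (3.23 ± 0.36, adjusted p = 3.42e-09). Hp, haptoglobin, had 1198.1 to 1456.2 CPM against 2709.6 to 4270.8 CPM, with PBS means of 1704 and 1690.4 CPM (-1.43 ± 0.18, adjusted p = 2.06e-08). The groups overlapped for neither gene. Without replicate 1 of LX-A1656 72h the list had 5 lower.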
